A study of Mus musculus with 2 samples.

Results

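The 10 genes described here mark the state and activation of T cells: the transcription factors Tcf7, Lef1, Gata3 and Foxp3, the cytokine receptor chains Il7r and Il2rb, the CD28 family receptors Icos, Ctla4 and Pdcd1, and the activation antigen Cd69. They were chosen by name from the 31053 genes of the deposited matrices, each name matched 1 row, and they are followed across cell classes and between 2 libraries. The Cd36-/- library came from mice of the strain LysM-Cre (x) floxed CD36, and the fl/fl library from floxed CD36 mice. LysM-Cre acts in macrophages and other myeloid cells, so the deletion was not aimed at T cells. All mice were 10 to 14 weeks old, received 1 mg of zymosan, a yeast cell wall preparation, in the peritoneal cavity, and gave their total peritoneal cells 3 days later. Each library was a pool of 4 replicates, with 1 library per group, so no difference between the libraries has a replicate check and none was tested.

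Naive T cells that circulate through lymphoid organs keep Tcf7, Lef1 and Il7r on, and lower Lef1 as they become effector cells. Activated and helper T cells raise Icos, which sustains help, and Ctla4 and Pdcd1, which restrain it, while Cd69 appears soon after activation and holds cells in a tissue by opposing exit along the S1P gradient. Foxp3 defines regulatory T cells, Gata3 the type 2 helper programme, and Il2rb is the signalling chain shared by the IL-2 and IL-15 receptors. Several of these genes also work outside T cells: natural killer (NK) cells depend on IL-15 through Il2rb, and B cells can raise Cd69.

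The Cd36-/- library held 116600732 unique molecular identifiers (UMIs, counts of single RNA molecules) and the fl/fl library 117238057, and 15023 Cd36-/- and 14005 fl/fl cells were used. The T cell class had 744 Cd36-/- cells and 650 fl/fl cells. Its cells were shallow, with medians of 2613 (Cd36-/-) and 3252.5 (fl/fl) UMIs, and it summed to 2170877 (Cd36-/-) and 2317043 (fl/fl) UMIs. Its defining markers were present, with Cd3d, a chain of the T cell receptor complex, at 923 (Cd36-/-) and 880 (fl/fl) CPM (the UMIs of a gene divided by those of its class and scaled to 1000000). RNA of other cells was present too: Lyz2, a macrophage gene, stood at 1611 (Cd36-/-) and 1949 (fl/fl) CPM and the B cell gene Igkc at 681 (Cd36-/-) and 532 (fl/fl) CPM in the T cell class. Their part in the results was not tested. Cd36, the gene the deletion was aimed at, stood at 172 CPM in macrophages of the Cd36-/- library and 240 CPM in those of the fl/fl library. Counts at the 3′ end can come from outside a deleted part, so these values do not check the deletion. The libraries shared 383 barcodes, carried by 21 Cd36-/- and 10 fl/fl T cells. Brackets hold exact 95% intervals of the counts, which say nothing of how animals vary.

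Promoters of 7 of the 10 genes are in RefSeq (GRCm38.p6), as 250 bases before to 50 bases after a start, and 3 are shown. Il7r had the lowest ratio between the libraries among the 7 members compared below, and Ctla4 and Foxp3 mark the regulatory T cells. Motifs were searched on both strands. CTTTGA is the motif of Tcf7 and Lef1. AGATAA is that of GATA factors. TAAACA is that of forkhead factors such as Foxp3. Sequences run 5′ to 3′, capitals mark each match, and no matches overlap.
Il7r, chr15:9529827-9530126, minus strand: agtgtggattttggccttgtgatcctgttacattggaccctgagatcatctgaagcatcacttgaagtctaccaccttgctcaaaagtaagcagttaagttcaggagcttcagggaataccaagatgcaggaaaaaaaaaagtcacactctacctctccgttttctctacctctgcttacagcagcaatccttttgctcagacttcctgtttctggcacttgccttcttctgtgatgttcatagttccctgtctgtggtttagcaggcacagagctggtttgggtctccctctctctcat
Ctla4, chr1:60908775-60909074, plus strand: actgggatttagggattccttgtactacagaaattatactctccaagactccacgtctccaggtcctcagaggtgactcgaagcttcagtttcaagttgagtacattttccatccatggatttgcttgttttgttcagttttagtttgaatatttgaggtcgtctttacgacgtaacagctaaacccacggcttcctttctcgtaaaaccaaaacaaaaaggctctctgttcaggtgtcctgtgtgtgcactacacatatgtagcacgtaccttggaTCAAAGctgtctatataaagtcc
Foxp3, chrX:7579426-7579725, plus strand: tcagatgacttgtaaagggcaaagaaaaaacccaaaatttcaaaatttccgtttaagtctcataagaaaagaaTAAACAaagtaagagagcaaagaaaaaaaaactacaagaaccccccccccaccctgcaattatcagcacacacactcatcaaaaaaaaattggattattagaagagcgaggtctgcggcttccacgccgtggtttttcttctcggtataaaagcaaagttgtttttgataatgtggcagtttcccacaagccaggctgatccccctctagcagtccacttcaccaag
The Ctla4 window held 1 match to the motif of Tcf7 and Lef1, the Foxp3 window 1 forkhead match, and the Il7r window none of the 3. Such letters are common: 16.2% of 27025 promoters held the first motif, 11.4% the GATA motif and 13.4% the forkhead motif.

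Among the transcription factors, Tcf7 and Lef1 were highest in T cells and came next in NK cells, Gata3 was as high in NK cells as in T cells or higher, and Foxp3 was low everywhere. Tcf7 (chromosome 11, 52252371 to 52283014 in mm10, minus strand), which keeps T cells in a naive or memory state, stood in T cells at 193 CPM (175 to 212) in the Cd36-/- library and 236 CPM (216 to 256) in the fl/fl library. In NK cells, Tcf7 stood at 95.8 CPM (79.5 to 114) in Cd36-/- and 126 CPM (105 to 151) in fl/fl cells. B cells, a cluster led by Cd209a and macrophages all stayed under 13 CPM of Tcf7 in both libraries. That order, T cells, NK cells and then those classes, was the same in both libraries, and the intervals of T and NK cells did not meet.

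Lef1, the partner of Tcf7 on the same motif (chromosome 3, 131110471 to 131224356, plus strand), stood at 188 CPM (170 to 207) in Cd36-/- and 198 CPM (180 to 217) in fl/fl T cells. NK cells held 56.5 CPM (44.2 to 71.2) of Lef1 in the Cd36-/- library, and 63.7 CPM (48.8 to 81.9) in the fl/fl one. Lef1 therefore separated T from NK cells more widely than Tcf7: the NK level was 30.1% (Cd36-/-) and 32.2% (fl/fl) of the T cell level for Lef1, against 49.6% (Cd36-/-) and 53.6% (fl/fl) for Tcf7. With doublets kept, the T cell levels of both were lower, and the NK level of Tcf7 was 74.7% (Cd36-/-) and 78.1% (fl/fl) of the T cell level.

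Gata3, which directs type 2 helper cells and is also needed by other lymphocytes (chromosome 2, 9857078 to 9890034, minus strand), stood at 103 CPM (86.0 to 122) in Cd36-/- NK cells and 119 CPM (98.2 to 143) in fl/fl NK cells. T cells held 88.0 CPM (75.9 to 101) of Gata3 in the Cd36-/- library, and 70.3 CPM (59.96 to 82.0) in the fl/fl one. The NK and T cell intervals overlapped in the Cd36-/- library and did not in the fl/fl library. The size of the gap in the Cd36-/- library depended on where the T cell class ended, while NK cells stayed the higher class. With doublets kept, Gata3 stood at 99.4 CPM in NK cells and 53.3 CPM in T cells of that library. With each gene centred within its library before clustering, Gata3 stood at 102 CPM in NK cells and 70.3 CPM in T cells.

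Foxp3 (chromosome X, 7573644 to 7595245, plus strand) gave 25 UMIs in Cd36-/- T cells and 26 UMIs in fl/fl T cells, which is 11.5 CPM (7.45 to 17.0) in Cd36-/- and 11.2 CPM (7.33 to 16.4) in fl/fl cells. NK cells gave 1 (Cd36-/-) and 0 (fl/fl) UMIs of Foxp3. Of all Foxp3 UMIs in the cells used, 35.7% (Cd36-/-) and 37.1% (fl/fl) lay in the T cell class, and the rest were spread over other classes at 2.62 CPM or less, apart from the rare type 1 dendritic cells and an unnamed cluster with T and B cell genes.

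The cytokine receptor chains had opposite preferences among the lymphocytes: Il7r was a T cell gene here, and Il2rb was highest in NK cells. Il7r, the chain that binds IL-7 and supports survival of resting T cells (chromosome 15, 9505788 to 9530176, minus strand), stood at 423 CPM (396 to 452) in Cd36-/- and 545 CPM (515 to 576) in fl/fl T cells. NK cells held 44.7 CPM (33.9 to 58.0) of Il7r in the Cd36-/- library, and 30.3 CPM (20.3 to 43.5) in the fl/fl one, and the Cd209a cluster 29.2 (Cd36-/-) and 26.4 (fl/fl) CPM. Those lower values overlapped in their intervals, and all lay far below the T cell intervals.

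Il2rb (chromosome 15, 78479256 to 78495271, minus strand) had a level of 528 CPM (488 to 569) in Cd36-/- NK cells and 573 CPM (526 to 623) in fl/fl NK cells. T cells held 192 CPM (174 to 211) of Il2rb in the Cd36-/- library, and 238 CPM (219 to 259) in the fl/fl one. The NK level was thus 275% (Cd36-/-) and 240% (fl/fl) of the T cell level, and no other named class reached 14 CPM.

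Of the CD28 family, Icos was highest in T cells, Ctla4 was shared between T cells and B cells, and Pdcd1 was rare. Icos, the inducible co-stimulator (chromosome 1, 60977927 to 61000320, plus strand), stood at 70.9 CPM (60.2 to 83.1) in Cd36-/- and 54.4 CPM (45.3 to 64.7) in fl/fl T cells. NK cells held 14.1 CPM (8.37 to 22.3) of Icos in the Cd36-/- library, and 12.5 CPM (6.48 to 21.9) in the fl/fl one, and B cells 0.444 (Cd36-/-) and 0.299 (fl/fl) CPM. Icos was thus nearly absent from B cells.

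Ctla4, the inhibitory receptor that competes with CD28 for its ligands (chromosome 1, 60887000 to 60915832, plus strand), stood at 17.5 CPM (12.4 to 24.0) in Cd36-/- and 15.1 CPM (10.5 to 21.0) in fl/fl T cells. B cells fell into a cluster with Fcer2a among its leading genes and a cluster with Zbtb32 and Siglecg among them, beside a small cycling cluster. The Zbtb32 cluster held 12.5 CPM (10.3 to 15.0) of Ctla4 in the Cd36-/- library and 8.10 CPM (6.76 to 9.64) in the fl/fl library, against 2.47 CPM (1.13 to 4.69) in Cd36-/- and 3.07 CPM (1.88 to 4.75) in fl/fl cells of the Fcer2a cluster. Ctla4 was therefore 71.5% (Cd36-/-) and 53.7% (fl/fl) of its T cell level in one B cell cluster and 14.1% (Cd36-/-) and 20.4% (fl/fl) in the other, while the summed receptor genes Cd3d, Cd3e, Cd3g and Trac stood at 0.780% (Cd36-/-) and 0.518% (fl/fl), and at 0.693% (Cd36-/-) and 0.561% (fl/fl), of theirs. B cells were numerous, and they held 51.6% (Cd36-/-) and 63.0% (fl/fl) of all Ctla4 UMIs in the cells used.

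Pdcd1, the receptor PD-1 (chromosome 1, 94038305 to 94052553, minus strand), gave 6 UMIs in Cd36-/- T cells and 27 UMIs in fl/fl T cells, 2.76 CPM (1.01 to 6.02) in Cd36-/- and 11.7 CPM (7.68 to 17.0) in fl/fl cells. No Pdcd1 UMI was found in NK cells of either library, which allows up to 2.36 (Cd36-/-) and 3.13 (fl/fl) CPM at 3 counts. T cells of the Cd36-/- library held 28.6% of that library's Pdcd1 UMIs, and those of the fl/fl library 65.9%, of totals of only 21 (Cd36-/-) and 41 (fl/fl) UMIs.

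Cd69 (chromosome 6, 129267325 to 129275436, minus strand) was not highest in T cells. The Fcer2a B cell cluster held 228 CPM (213 to 244) in the Cd36-/- library and 200 CPM (189 to 211) in the fl/fl library, against 105 CPM (91.8 to 120) in Cd36-/- and 79.4 CPM (68.4 to 91.8) in fl/fl T cells. NK cells, at 106 CPM (88.9 to 125) in Cd36-/- and 74.2 CPM (57.9 to 93.6) in fl/fl cells, overlapped with T cells in their intervals. The Zbtb32 B cell cluster came after them at 52.1 (Cd36-/-) and 43.9 (fl/fl) CPM, and all macrophages together held 3.11 (Cd36-/-) and 3.62 (fl/fl) CPM. B cells held 63.2% (Cd36-/-) and 75.7% (fl/fl) of all Cd69 UMIs, so a value of Cd69 over all peritoneal cells is mostly a B cell value. The clusters were made without any of the 10 genes.

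**Figure D1:**
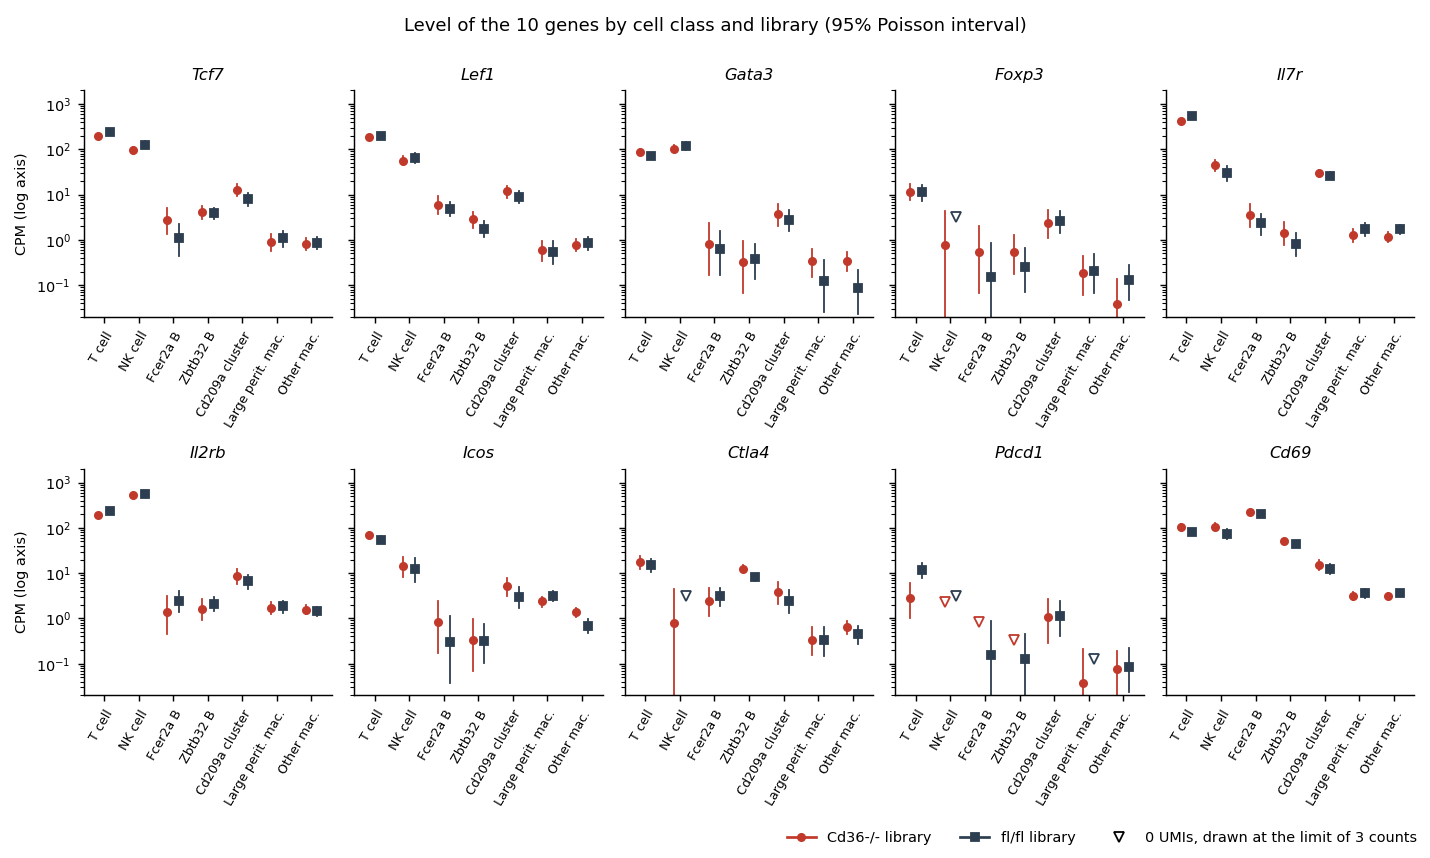
Level of each gene in CPM (log axis) in 7 cell classes or clusters, with the Cd36-/- library in red circles left of the fl/fl library in dark squares; bars are 95% Poisson intervals and open triangles mark 0 UMIs at the limit of 3 counts. Il7r and Lef1 are highest in T cells, Il2rb in NK cells at 528 (Cd36-/-) and 573 (fl/fl) CPM, and Cd69 in the Fcer2a B cell cluster at 228 (Cd36-/-) and 200 (fl/fl) CPM.

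Macrophages, which made up most cells, held little of any member, and Icos was the one closest to its T cell level in the large peritoneal macrophages. In large peritoneal macrophages, the resident macrophages of the cavity, Tcf7, Lef1, Gata3 and Il7r stood at 0.179% to 0.463% of their T cell level over both libraries. The summed receptor genes stood close to that, at 0.436% (Cd36-/-) and 0.390% (fl/fl). Icos reached 3.36% (Cd36-/-) and 5.78% (fl/fl) of its T cell level there, with 64 UMIs in 63 Cd36-/- cells and 75 UMIs in 70 fl/fl cells, and Cd69 came next at 2.98% (Cd36-/-) and 4.49% (fl/fl). Ctla4, Foxp3 and Il2rb also lay above the share of the receptor genes in both libraries. They rested on 9 (Cd36-/-) and 8 (fl/fl) UMIs of Ctla4, 5 in each library of Foxp3, and 46 (Cd36-/-) and 44 (fl/fl) of Il2rb. In the other macrophages, Cd69 and Ctla4 lay closer to their T cell levels than Icos did. The level of Icos in large peritoneal macrophages was 2.38 CPM (1.83 to 3.04) in the Cd36-/- library and 3.14 CPM (2.47 to 3.94) in the fl/fl library, against 1.36 (Cd36-/-) and 0.680 (fl/fl) CPM in the other macrophages.

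The 3 clusters of large peritoneal macrophages held Icos at 2.16 to 2.97 CPM in the Cd36-/- library and 1.59 to 3.81 CPM in the fl/fl library. The 4 clusters of other macrophages held 0.835 to 1.66 CPM in Cd36-/- and 0.311 to 0.831 CPM in fl/fl cells, so within each library every one of them was lower. Because macrophages were so many, they held 37.0% (Cd36-/-) and 36.4% (fl/fl) of all Icos UMIs, close to the 41.8% (Cd36-/-) and 42.9% (fl/fl) in T cells. The share of large peritoneal macrophages with an Icos UMI was 1.89% (Cd36-/-) and 2.75% (fl/fl), against 0.689% (Cd36-/-) and 1.02% (fl/fl) for Tcf7, in cells with medians of 7512 (Cd36-/-) and 8500 (fl/fl) UMIs. At 1000 UMIs per cell, the Icos share was 0.270% (Cd36-/-) and 0.314% (fl/fl) and the Tcf7 share 0.0600% (Cd36-/-) and 0.157% (fl/fl). These are low values, mostly 1 UMI in a positive cell, and lie far below the limit used for comparing the libraries.

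**Figure D2:**
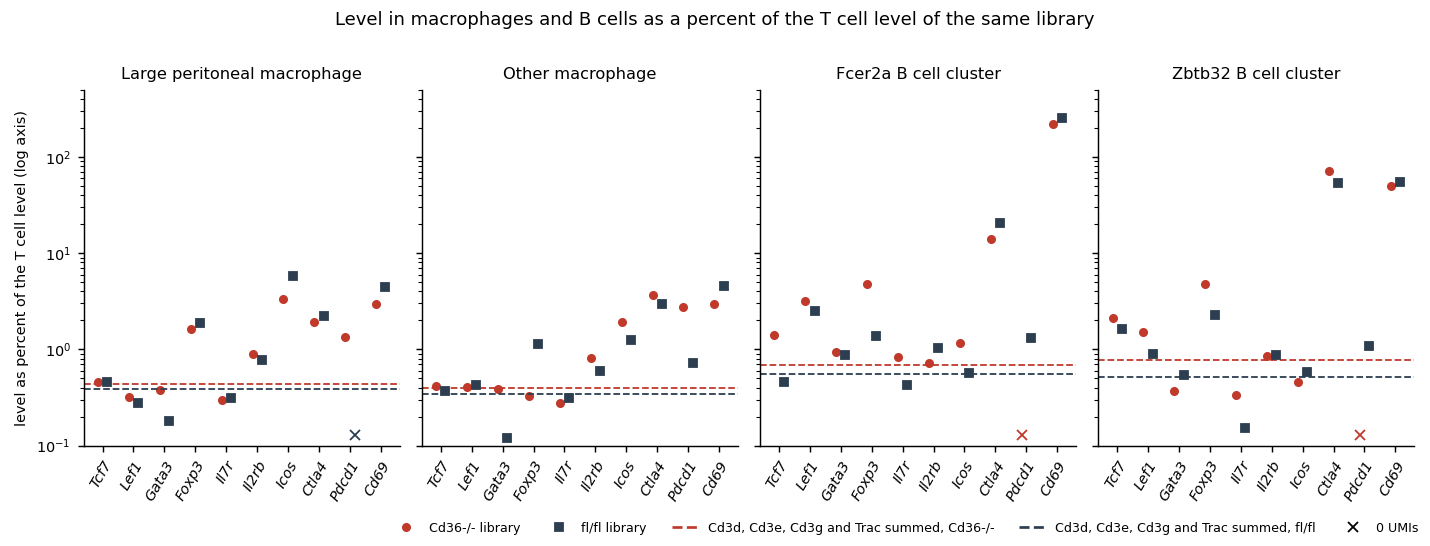
Level of each gene in 2 macrophage classes and 2 B cell clusters as a percent of its T cell level in the same library (log axis), with dashed lines at the percent for Cd3d, Cd3e, Cd3g and Trac summed and crosses at 0 UMIs; red is the Cd36-/- library and dark the fl/fl library. Icos lies above the lines in large peritoneal macrophages at 3.36% (Cd36-/-) and 5.78% (fl/fl), as do Cd69, Ctla4, Foxp3 and Il2rb at lower percents. Ctla4 and Cd69 lie far above the lines in B cells.

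Within the T cell class, Icos, Ctla4, Gata3 and Foxp3 were higher in CD4-gated than in CD8-gated cells. A CD4 gate (at least 1 Cd4 UMI, none of Cd8a or Cd8b1) took in 82 Cd36-/- and 78 fl/fl T cells, and a CD8 gate (the converse) 205 (Cd36-/-) and 169 (fl/fl). Most T cells, 61.4% (Cd36-/-) and 62.0% (fl/fl), were in neither gate. In the CD4 gate, Icos stood at 132 CPM (33 UMIs) and 86.8 CPM (22 UMIs) in the Cd36-/- and fl/fl libraries, while the CD8 gate held 26.4 (Cd36-/-) and 22.8 (fl/fl) CPM. CD4-gated cells thus held more Icos than CD8-gated cells, by 2.32 (Cd36-/-) and 1.93 (fl/fl) on the log2 scale.

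Ctla4 stood at 48.0 (Cd36-/-) and 39.5 (fl/fl) CPM in the CD4 gate, from 12 (Cd36-/-) and 10 (fl/fl) UMIs, and at 2.78 (Cd36-/-) and 5.08 (fl/fl) CPM in the CD8 gate, from 2 (Cd36-/-) and 4 (fl/fl) UMIs. Gata3 followed the same pattern, at 112 (Cd36-/-) and 107 (fl/fl) CPM in CD4-gated cells and 63.9 (Cd36-/-) and 39.3 (fl/fl) CPM in CD8-gated cells. Foxp3 gave 7 (Cd36-/-) and 5 (fl/fl) UMIs in the CD4 gate and 0 (Cd36-/-) and 2 (fl/fl) in the CD8 gate. All 4 genes were higher in CD4-gated cells in both libraries, although the intervals overlapped for Gata3 in the Cd36-/- library and for Foxp3 in the fl/fl library. Tcf7, Lef1, Il7r, Il2rb and Cd69 lay within 0.65 on the log2 scale between the gates, with Lef1 and Il2rb on opposite sides in the 2 libraries. A stricter gate of at least 2 UMIs left 12 Cd36-/- and 18 fl/fl CD4-gated cells, and put Lef1 in the Cd36-/- library at 71.9 CPM in them, against 140 CPM in the wider gate. Icos stood at 71.9 (Cd36-/-) and 103 (fl/fl) CPM in those few cells, from 4 (Cd36-/-) and 8 (fl/fl) UMIs.

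A cluster of 50 Cd36-/- and 37 fl/fl T cells was led by Tcrg-C1 and Trdc, which encode constant regions of the gamma and delta receptor chains. Il7r stood at 878 CPM (737 to 1039) in Cd36-/- and 939 CPM (791 to 1106) in fl/fl cells of it, against 388 (Cd36-/-) and 517 (fl/fl) CPM in the main T cell cluster. Icos stood at 207 CPM (141 to 292) in Cd36-/- and 225 CPM (156 to 314) in fl/fl cells, against 60.5 (Cd36-/-) and 42.5 (fl/fl) CPM in the main cluster. Lef1 was low there, at 38.8 CPM (6 UMIs) in Cd36-/- and 85.9 CPM (13 UMIs) in fl/fl cells, against 199 (Cd36-/-) and 205 (fl/fl) CPM. The cluster therefore held the members in another mix than the main T cells, with more Il7r and Icos and less Lef1 in both libraries.

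Neither Foxp3 nor Ctla4 gave a UMI in that cluster in either library, which allows up to 19.4 (Cd36-/-) and 19.8 (fl/fl) CPM at 3 counts. Il2ra, the high-affinity chain of the IL-2 receptor, stood at 84.0 CPM (13 UMIs) in Cd36-/- and 99.2 CPM (15 UMIs) in fl/fl cells of the cluster, against 12.9 (Cd36-/-) and 12.1 (fl/fl) CPM over all T cells. Pdcd1 gave 2 UMIs in its Cd36-/- cells and 8 in its fl/fl cells.

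**Figure D3:**
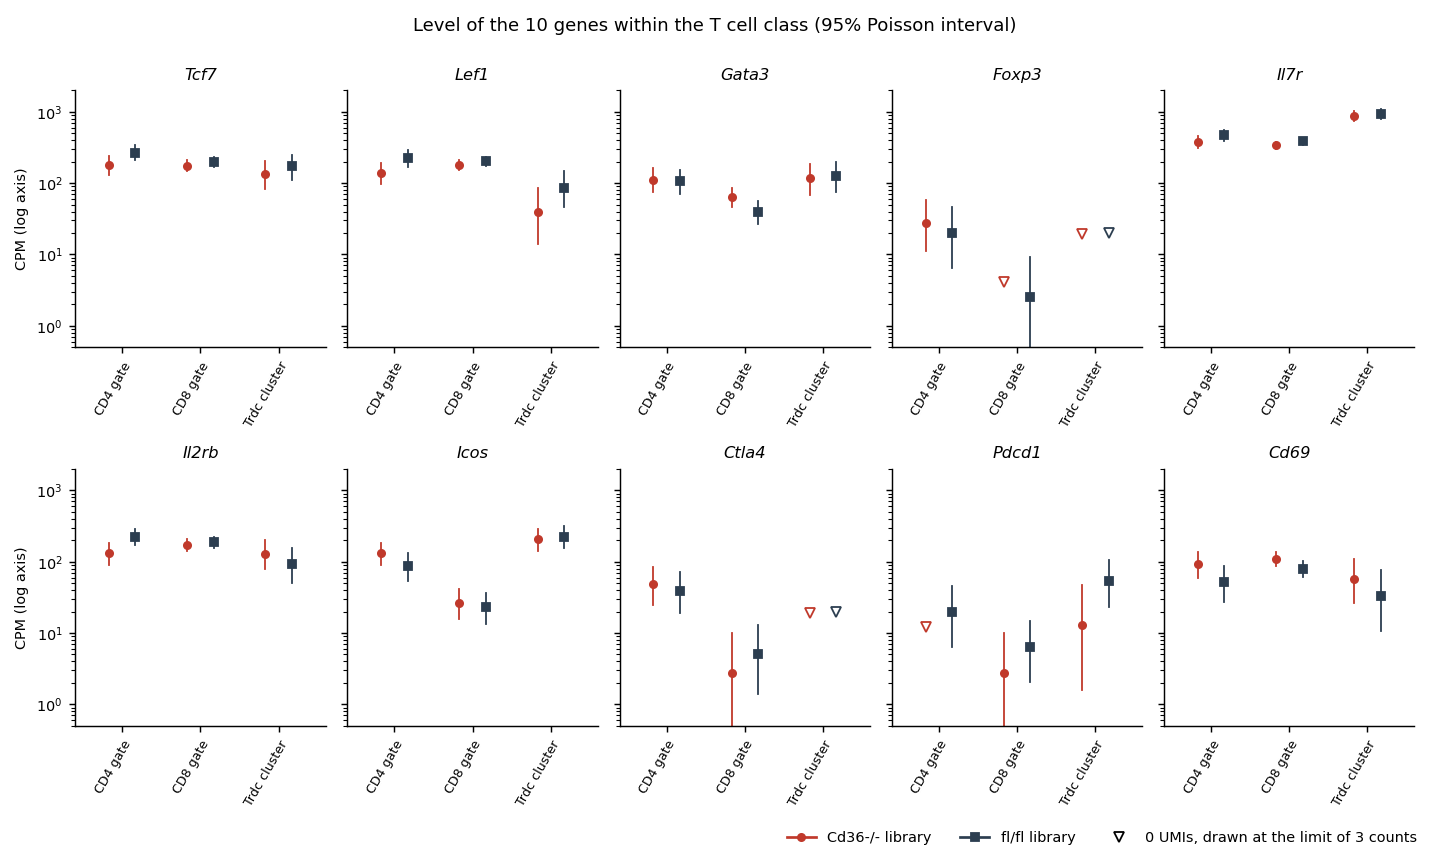
Level of each gene in CPM (log axis) in 3 overlapping groups of T cells, with the Cd36-/- library in red circles left of the fl/fl library in dark squares; bars are 95% Poisson intervals and open triangles mark 0 UMIs at the limit of 3 counts. Icos is higher in CD4-gated and Trdc cluster cells than in CD8-gated cells, and Lef1 is lowest in the Trdc cluster.

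T cells with at least 1 Foxp3 UMI numbered 20 of Cd36-/- and 18 of fl/fl origin, 2.69% (1.65 to 4.12) and 2.77% (1.65 to 4.34) of T cells. Of them, 5 Cd36-/- and 4 fl/fl cells were in the CD4 gate and 0 (Cd36-/-) and 1 (fl/fl) in the CD8 gate, and 15 (Cd36-/-) and 12 (fl/fl) had no UMI of Cd4, Cd8a or Cd8b1. Their median depths, 1933 (Cd36-/-) and 2057 (fl/fl) UMIs, were below those of the T cell class. Set beside CD4-gated cells without a Foxp3 UMI (77 Cd36-/- and 74 fl/fl cells), they held more Ctla4 and Icos in both libraries, and more of 3 other genes of regulatory T cells.

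Ctla4 stood at 250 CPM (133 to 428) in Foxp3-positive cells of the Cd36-/- library, against 33.4 CPM (14.4 to 65.8) in their CD4-gated neighbours. In the fl/fl library, Ctla4 stood at 179 CPM (81.8 to 340) in Foxp3-positive cells and 28.4 CPM (11.4 to 58.6) in their neighbours. Icos stood at 385 CPM (235 to 594) against 113 CPM (74.3 to 164) in the Cd36-/- library, and at 278 CPM (152 to 467) against 89.4 CPM (56.0 to 135) in the fl/fl library. In each of these 4 pairs the intervals did not meet, although the Foxp3-positive cells gave only 9 to 20 UMIs of either gene.

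Ikzf2, the transcription factor Helios found in thymus-derived regulatory cells, stood at 750 CPM against 155 CPM in the Cd36-/- library and 696 CPM against 187 CPM in the fl/fl library. Tnfrsf18 and Tnfrsf4, the co-stimulatory receptors GITR and OX40, were higher in Foxp3-positive cells too, with Tnfrsf18 at 346 CPM against 113 CPM (Cd36-/-) and at 437 CPM against 179 CPM (fl/fl). Il7r ran lower in them, at 192 CPM against 388 CPM in the Cd36-/- library, from 10 UMIs, and at 298 CPM against 467 CPM in the fl/fl library, from 15 UMIs. The intervals of Il7r overlapped in both libraries. Tcf7 was lower in the Cd36-/- library, at 38.5 CPM (2 UMIs) against 188 CPM, and closer in the fl/fl library, at 179 CPM (9 UMIs) against 268 CPM. Gata3 gave 0 UMIs in Foxp3-positive cells of the Cd36-/- library, against 117 CPM (28 UMIs) in their neighbours, and stood at 159 CPM (8 UMIs) against 97.5 CPM (24 UMIs) in the fl/fl library, so it had no common order. The 20 Cd36-/- and 18 fl/fl cells are too few to compare the libraries.

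**Figure D4:**
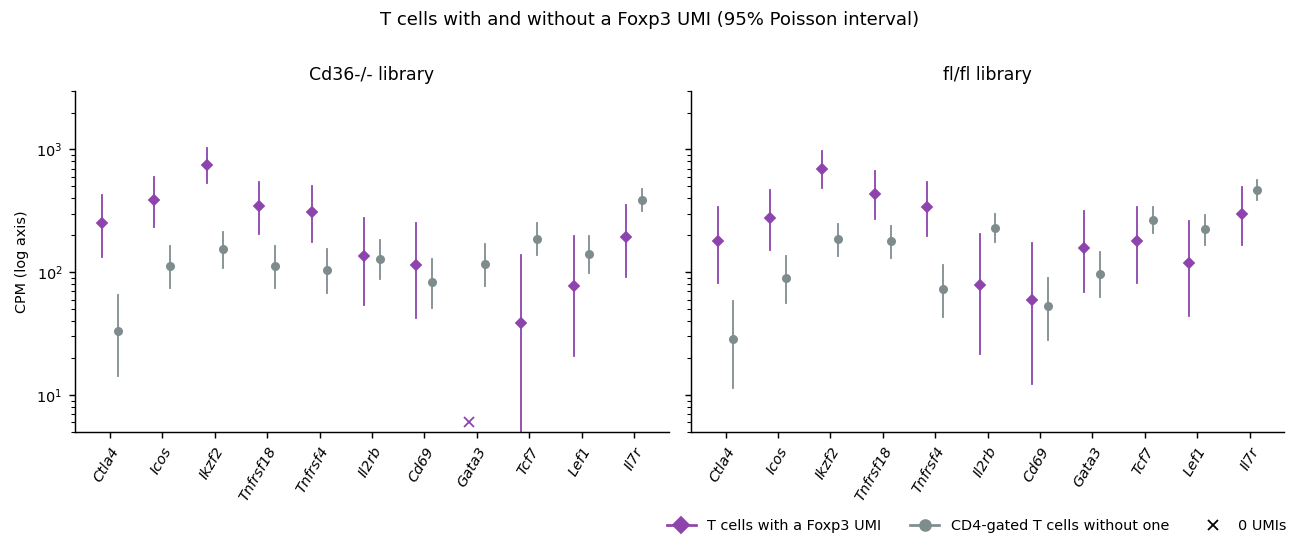
Level in CPM (log axis) of 11 genes in T cells with a Foxp3 UMI (purple diamonds, left of each pair) and in CD4-gated T cells without one (grey circles), with the Cd36-/- library in the left panel and the fl/fl library in the right; bars are 95% Poisson intervals and a cross marks 0 UMIs. Ctla4, Icos, Ikzf2, Tnfrsf18 and Tnfrsf4 lie higher in the Foxp3-positive cells in both libraries.

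Between the libraries, the T cell levels of the members abundant enough to compare were close. Genes were compared where their mean over the 2 libraries was at least 20 CPM, and 7 of the 10 members passed, all but Foxp3, Ctla4 and Pdcd1. None of the 7 was at least 2-fold apart, and neither were most genes: 15 of 4266 (0.352%) were, 8 higher (0.188%) and 7 lower (0.164%) in the Cd36-/- library. That count was 9 with doublets kept and 194 with the limit at 5 CPM, and its split was 5 higher and 8 lower with genes centred within each library before clustering. The median log2 ratio of all genes compared, Cd36-/- over fl/fl, was 0.07, so ratios near that value mark no difference from the bulk of genes.

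Il7r had the lowest ratio of the 7, at -0.36 (-0.49 to -0.24), with 919 UMIs in Cd36-/- T cells and 1262 in fl/fl T cells. Only 4.92% of all genes compared had a lower ratio. Il2rb stood at -0.31 (-0.50 to -0.13), with 416 (Cd36-/-) and 552 (fl/fl) UMIs, and Tcf7 at -0.29 (-0.48 to -0.10), with 419 (Cd36-/-) and 546 (fl/fl) UMIs. Lef1, with 408 (Cd36-/-) and 458 (fl/fl) UMIs, stood at -0.07 (-0.27 to 0.12). Il7r, Il2rb and Tcf7 were thus lower in Cd36-/- T cells by more than counting error, and Lef1 was not.

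Cd69 had the highest ratio, at 0.40 (0.12 to 0.69), with 228 UMIs in Cd36-/- T cells and 184 in fl/fl T cells, and 91.4% of genes lay below it. Icos stood at 0.38 (0.03 to 0.73), with 154 (Cd36-/-) and 126 (fl/fl) UMIs, and Gata3 at 0.32 (0.01 to 0.63), with 191 (Cd36-/-) and 163 (fl/fl) UMIs. The intervals of Icos and Gata3 held the median of all genes, and that of Cd69 lay above it. Gzma, a granzyme that NK cells share, was among the 8 higher genes, at 102 CPM in Cd36-/- and 28.9 CPM in fl/fl T cells, and the NK receptor gene Ncr1 stood at 16.1 (Cd36-/-) and 6.91 (fl/fl) CPM in the T cell class. The others of those 15 genes included Lyz1, S100a8 and S100a9 of myeloid cells, Ins2 and Ppy of the pancreas and 3 haemoglobin genes. RNA of other cells thus differed between the T cell classes of the 2 libraries, and its part in the members' ratios was not tested.

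Pdcd1 had the widest gap, -2.08 (-3.64 to -0.77), from 6 UMIs in 6 Cd36-/- T cells and 27 UMIs in 23 fl/fl T cells. Its mean of 7.21 CPM lay under the limit for comparison. With doublets kept the counts were 12 (Cd36-/-) and 29 (fl/fl) UMIs and the ratio -1.42, and with each gene centred within its library before clustering the ratio was -1.32, so the size of the gap depends on where the class ends. Ctla4 stood at 0.21 (-0.49 to 0.92) and Foxp3 at 0.04 (-0.81 to 0.89), and both changed sign under other ways of choosing or weighting cells.

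Within gates, none of the 9 members compared in CD4-gated cells and none of the 7 compared in CD8-gated cells was at least 2-fold apart. The background was 14.1% of genes in the CD4 gate, with only 250129 (Cd36-/-) and 253458 (fl/fl) UMIs, and 3.08% in the CD8 gate. Il2rb was the lowest member in the CD4 gate, at -0.77 (-1.43 to -0.13), and Gata3 the highest in the CD8 gate, at 0.70 (0.01 to 1.41).

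In NK cells, 6 members were compared and none was at least 2-fold apart, with 1.54% of genes past that limit. Cd69 stood at 0.51 (0.09 to 0.95), with 135 (Cd36-/-) and 71 (fl/fl) UMIs, Tcf7 at -0.40 (-0.78 to -0.03), with 122 (Cd36-/-) and 121 (fl/fl) UMIs, and Il2rb at -0.12 (-0.28 to 0.05). Lef1 stood at -0.17 (-0.69 to 0.34), Gata3 at -0.21 (-0.59 to 0.16) and Il7r at 0.56 (-0.11 to 1.26). Cd69 thus leaned the same way in T and NK cells, as did Tcf7, Il2rb and Lef1. Il7r and Gata3 leaned the other way in NK cells than in T cells, with NK intervals that held 0. In B cells only Cd69 passed the limit for comparison, at 0.19 (0.09 to 0.29), with 0.151% of genes at least 2-fold apart. Ctla4, at 9.39 CPM in B cells of the Cd36-/- library and 6.41 CPM in those of the fl/fl library, had a ratio of 0.55 (0.20 to 0.90) there, below the level at which genes were compared. In macrophages, where 0.0671% of genes were past 2-fold, no member reached 20 CPM.

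**Figure D5:**
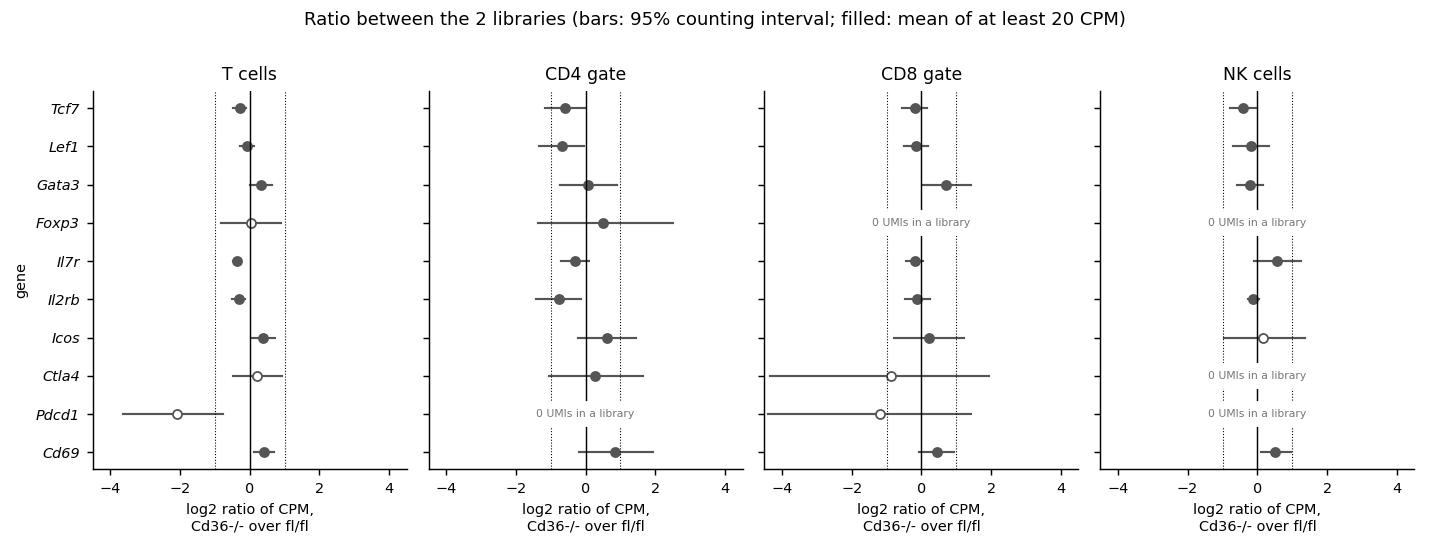
Log2 ratio of CPM, Cd36-/- over fl/fl, for each gene in T cells, CD4-gated and CD8-gated T cells and NK cells; bars are 95% counting intervals, dotted lines mark 2-fold, filled points have a mean of at least 20 CPM and open points less. In T cells Il7r, Il2rb and Tcf7 lie left of 0 and Cd69, Icos and Gata3 right of it, all within 2-fold.

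The share of T cells with a UMI follows depth, which was lower in the Cd36-/- library. Il7r was detected in 58.3% of Cd36-/- and 71.5% of fl/fl T cells, and in 36.8% (Cd36-/-) and 38.0% (fl/fl) once each cell was thinned to 1000 UMIs, which left out 16 (Cd36-/-) and 8 (fl/fl) shallower cells. Tcf7 was detected in 39.0% (Cd36-/-) and 52.9% (fl/fl) before thinning and in 18.7% (Cd36-/-) and 20.6% (fl/fl) after. Icos was detected in 14.5% (Cd36-/-) and 12.9% (fl/fl) before and in 4.81% (Cd36-/-) and 4.67% (fl/fl) after. The gaps in Il7r and Tcf7 shares between the libraries therefore shrank at equal depth.

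Genes of the same pathways, from lists chosen with these data known, differed little between the libraries in T cells where they reached the limit for comparison. Of the 16 receptor complex and proximal kinase genes, all compared, 14 were higher and 2 lower in the Cd36-/- library, with a median log2 ratio of 0.15, beside 2614 higher and 1652 lower of all 4266 genes and the median of 0.07. Lat, the adaptor of receptor signalling, stood at 0.34 (0.15 to 0.52), Lcp2 at 0.42 (0.07 to 0.77), Cd3g at 0.19 (0.08 to 0.30) and Trbc2 at 0.11 (0.03 to 0.19). With doublets kept the median of the 16 genes was 0.03. Among 6 co-stimulatory receptors compared, 3 were higher and 3 lower, and Cd28, the founding member of the family of Icos and Ctla4, stood at 0.35 (0.15 to 0.56). Of 3 inhibitory receptors compared, 2 were higher, with Cd96 at 0.65 (0.18 to 1.12).

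Naive and recirculating genes were split, 5 higher and 6 lower, with Ccr7, the lymph node homing receptor, at 0.28 (0.08 to 0.48), Igfbp4 at 0.49 (0.05 to 0.93) and Txk at -0.22 (-0.42 to -0.01). Of the common gamma chain group, which holds the partners of Il7r and Il2rb, 4 were higher and 3 lower. Il2rg, the shared chain itself, stood at 190 (Cd36-/-) and 189 (fl/fl) CPM with a ratio of 0.00 (-0.20 to 0.20), and Il4ra at -0.53 (-1.003 to -0.07). Lineage transcription factors were 6 higher and 3 lower, with Id2 at 0.24 (0.13 to 0.35), Bcl11b at 0.29 (0.05 to 0.52) and Ets1 at -0.20 (-0.34 to -0.05). The lower Il7r and Il2rb therefore stood beside an even level of their shared partner chain.

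Regulatory T cell genes were 2 higher and 2 lower of 4 compared, with Ikzf2 at -0.18 (-0.41 to 0.04). Of 18 early activation genes listed, the companions of Cd69 after receptor triggering, only 6 were compared, 4 higher and 2 lower. Their median of 0.06 turned to -0.22 with doublets kept. Nfkbia stood at 0.10 (-0.12 to 0.31), Junb at 0.07 (-0.21 to 0.36) and Tnfsf8 at 0.06 (-0.24 to 0.35). The rest, Fos with 32 (Cd36-/-) and 15 (fl/fl) UMIs among them, lay under the limit for comparison. Effector genes were 9 higher and 1 lower of 10, with a median of 0.17, which was 0.06 with doublets kept and 0.05 with each gene centred within its library. They included Gzma at 1.82 (1.42 to 2.23), the only listed gene past 2-fold among those compared. Some listed genes under the limit for comparison, such as Ifng with 17 (Cd36-/-) and 5 (fl/fl) UMIs, also lay past 2-fold. The chemokine receptors Cxcr6 and Ccr2 stood at 0.66 (0.35 to 0.98) and 0.50 (0.18 to 0.83). Of the ligand list only Clec2d was compared, at 0.08 (-0.16 to 0.33), and it is not an established ligand of any of the 10 members.

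The ligands of the member receptors lay mostly outside the T cells, with Il2 an exception and Cd274 a partial one. Il2 stood at 5.99 CPM (13 UMIs) in Cd36-/- and 3.88 CPM (9 UMIs) in fl/fl T cells, against 1.18 (Cd36-/-) and 1.32 (fl/fl) CPM in B cells. NK cells held 3.14 CPM (4 UMIs) of Il2 in the Cd36-/- and 3.13 CPM (3 UMIs) in the fl/fl library, with intervals that overlapped those of T cells. Icosl, the ligand of Icos, was highest, among classes with more than 3 UMIs of it in both libraries, in the Fcer2a B cell cluster, at 26.9 CPM in the Cd36-/- library and 26.1 CPM in the fl/fl library, and in the Cd209a cluster, at 16.1 (Cd36-/-) and 19.8 (fl/fl) CPM. It stood at 4.25 (Cd36-/-) and 3.80 (fl/fl) CPM in the Zbtb32 B cell cluster. Cd86, a ligand shared by Cd28 and Ctla4, stood at 27.5 (Cd36-/-) and 24.2 (fl/fl) CPM in large peritoneal macrophages, and at 64.1 (Cd36-/-) and 71.9 (fl/fl) CPM in type 1 dendritic cells, from 24 (Cd36-/-) and 35 (fl/fl) UMIs. Cd80, the other shared ligand, stood at 12.2 (Cd36-/-) and 13.0 (fl/fl) CPM in the Zbtb32 B cell cluster, which also held Ctla4, and at 10.7 (Cd36-/-) and 10.98 (fl/fl) CPM in large peritoneal macrophages.

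Pdcd1lg2, a ligand of Pdcd1, was a B cell gene here, at 18.4 (Cd36-/-) and 17.6 (fl/fl) CPM in the Zbtb32 cluster and 0.558 (Cd36-/-) and 0.419 (fl/fl) CPM in large peritoneal macrophages. Cd274, the other ligand, stood at 17.1 (Cd36-/-) and 14.6 (fl/fl) CPM in the Zbtb32 cluster and at 4.18 (Cd36-/-) and 2.15 (fl/fl) CPM in the other macrophages. T cells held 12.4 (Cd36-/-) and 4.75 (fl/fl) CPM of Cd274, from 27 (Cd36-/-) and 11 (fl/fl) UMIs. For the cytokine receptors, Il15 stood at 7.37 (Cd36-/-) and 6.54 (fl/fl) CPM in large peritoneal macrophages, Il15ra, which presents it to cells with Il2rb, at 12.9 (Cd36-/-) and 17.6 (fl/fl) CPM, and Il7 at 1.30 (Cd36-/-) and 1.38 (fl/fl) CPM.

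Over 9 cell classes (T cells split into CD4-gated, CD8-gated and other, and the 6 other named classes that had 100 cells or more in both libraries, as means of both libraries), each member was set beside 6813 other genes by Pearson's r of log2(CPM + 1). Cd247, Crtc3 and Plcxd2 were most like Tcf7 (r 0.990 to 0.993), Plcxd2 and Cd247 were close to Lef1 (0.990 and 0.988), and Zap70, Tox and Prkcq most like Gata3 (0.996 to 0.998). Cd40lg, Izumo1r and Ly6c1 followed Foxp3 (0.977 to 0.987), Cd3d, Cd3g and Aebp2 followed Il7r (0.976 to 0.983), and Il18r1, Cd27 and Skap1 followed Il2rb (0.979 to 0.993). Tesc, Axin2 and Cd28 were nearest to Icos (0.960 to 0.976), Slamf1, Trib2 and Nek7 to Ctla4 (0.968 to 0.989), Cd6, Camk4 and Cd3e to Pdcd1 (0.981 to 0.990), and Nol8, A430078G23Rik and Tagap1 to Cd69 (0.989 to 0.991). The 9 points share libraries and free RNA, so these values only describe likeness.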

How the data were processed

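Each pool of peritoneal cells gave 1 single-cell RNA library (10x Genomics, 3′ v2 chemistry, per the labels' protocols). The authors deposited raw UMI counts per gene and barcode. The file headers name software version 3.0.0, and the submitters' processing notes name Cell Ranger and mm10. The annotation release is not given in the sources used here. Gene positions are from GENCODE M21 (mm10). Barcodes with at least 200 genes and at most 10% mitochondrial UMIs were kept, and doublets marked by Scrublet per library (977 Cd36-/- and 728 fl/fl barcodes) were removed. Cells of both libraries were clustered together in scanpy 1.11.5 (2000 variable genes, 40 components, 20 neighbours, leidenalg 0.10.2 at resolution 1), which gave 20 clusters. The 10 genes were left out of the clustering and of the markers. Clusters were named here from marker lists, so each class name means "like". The cluster led by Cd209a mixed markers of type 2 dendritic cells and MHC class II macrophages, and 3 clusters stayed unnamed.

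UMIs were summed per class and library and scaled to CPM, with exact Poisson intervals for levels, exact conditional binomial intervals for ratios and Clopper-Pearson intervals for shares. They cover counting error only. With 1 library per group, no test was run. The 2-fold limit describes size. The calculation was tested on counts simulated under the same Poisson model that the intervals assume. Such a test checks the arithmetic only, since it holds no variation between cells and no error in class boundaries. The members, lists, gates and markers were chosen with earlier results of these data known. All 10 members are named; from each of 10 lists up to 4 genes are named, those whose interval lies farthest from 0 or else the most abundant, and for each member up to 3 genes most like it. Some genes, and the results that need them, are not reported here. Genes named by cell class beside these (Il2ra, Tnfrsf4, Ncr1, Igkc, Lyz2 and the ligands) and the genes past 2-fold in T cells were picked as context, some after their values were seen. Alternatives changed the filters, clustering, gates, scaling, weighting of cells and the CPM limit.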

Additional observations from a re-analysis of the deposited data

Results flagged for a closer look

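Opposite ratios in different classes, each with an interval that leaves out 0, were found for 2 members. The log2 ratio of Tcf7, Cd36-/- over fl/fl, was -0.29 in T cells and -0.40 in NK cells, but 0.71 in the Cd209a cluster, where it rested on 48 (Cd36-/-) and 42 (fl/fl) UMIs. The summed receptor genes Cd3d, Cd3e, Cd3g and Trac stood in that cluster at 132 CPM (Cd36-/-) and 61.0 CPM (fl/fl). The ratio of Il7r was -0.36 in T cells and -0.51 in macrophages, but 0.79 in B cells, where it rested on 31 UMIs in each library and the receptor genes stood at 19.1 (Cd36-/-) and 10.8 (fl/fl) CPM. The difference between classes was not tested in either case, and neither was the part of T cell RNA in it.

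A cluster of 170 Cd36-/- and 83 fl/fl cells was left unnamed because it held T and B cell genes together, at median depths of 6793.5 (Cd36-/-) and 9275 (fl/fl) UMIs, and it entered no comparison. It nevertheless held 9 members above 3 UMIs in both libraries. Tcf7 stood in it at 107 (Cd36-/-) and 69.9 (fl/fl) CPM, Lef1 at 63.6 (Cd36-/-) and 44.9 (fl/fl) CPM, Gata3 at 35.5 (Cd36-/-) and 18.7 (fl/fl) CPM, and Il7r at 152 (Cd36-/-) and 126 (fl/fl) CPM. Il2rb stood at 73.5 (Cd36-/-) and 84.9 (fl/fl) CPM, Icos at 24.8 (Cd36-/-) and 16.2 (fl/fl) CPM, Cd69 at 78.4 (Cd36-/-) and 57.4 (fl/fl) CPM, Ctla4 at 14.9 (Cd36-/-) and 9.99 (fl/fl) CPM, and Foxp3 at 13.2 (Cd36-/-) and 9.99 (fl/fl) CPM. It held 15.5% of all Tcf7 UMIs of the Cd36-/- library and 6.19% of those of the fl/fl library.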

How the results depend on the processing

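The log2 ratios of the 10 members in T cells stayed within their counting intervals under all 10 alternatives run for them, 1 of which, leaving out cells whose barcode is in both libraries, was chosen after seeing the data. Il7r ranged from -0.47 to -0.32, Il2rb from -0.40 to -0.26, Tcf7 from -0.36 to -0.25, Cd69 from 0.30 to 0.55 and Pdcd1 from -2.30 to -1.32, while Ctla4 (-0.27 to 0.28) and Foxp3 (-0.25 to 0.35) changed sign. The 15 genes at least 2-fold apart became 9 with doublets kept, 194 with a mean of at least 5 CPM and 5 with at least 50 CPM, and stayed between 11 and 21 otherwise. Members past 2-fold were 0 of 7, beside 15 of 4266 genes (0.352%). At the 5 CPM limit Pdcd1, on 6 (Cd36-/-) and 27 (fl/fl) UMIs, was among the 194 genes past 2-fold. The number of genes compared at that limit is not given here, so this is not read as a result about the members. T cell levels left their intervals in 15 of 20 cases with doublets kept, in 12 with each gene centred within its library and in 2 with the per-cell marker gate, while NK cell levels stayed within theirs. With doublets kept, the log2 NK over T level moved for Tcf7 to -0.42 (Cd36-/-) and -0.36 (fl/fl), for Lef1 to -0.9999 (Cd36-/-) and -1.03 (fl/fl), for Gata3 to 0.90 (Cd36-/-) and 1.34 (fl/fl), and for Il2rb to 1.90 (Cd36-/-) and 1.70 (fl/fl). The median of the effector genes was 0.13 at a 20% mitochondrial limit and 0.12 with the per-cell gate, that of the inhibitory receptors 0.50 with centring, and that of the regulatory genes -0.11 with the per-cell gate. The cause was not tested. Depth limits Foxp3, Ctla4 and Pdcd1, with 6 to 38 UMIs per library in T cells. No paired analysis was possible because there was 1 pooled library per group and the labels give no replicate numbers.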
